A study of Mus musculus with 8 samples.

Results

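The genes described are 9 genes of the complement system, C1ra, Masp1, C4b, C2, C3, Cfb, Cfd, Serping1 and Cd55. They were chosen by symbol, all 9 have a row in each of the 8 tables of FPKM (fragments mapped to a gene, scaled to transcript length and to library depth), and the tables list 24346 genes in all. The cells were sorted from mouse large intestine as mesenchymal cells without CD45, EpCAM or CD31, with gp38 (podoplanin), high PDGFRα and no Ly6C. In the genotype libraries, 1 library came from Foxl1cre; Cxcl12 flox/flox cells, here called the Foxl1-cre library, and 1 from Cxcl12 flox/flox cells, the control library, both untreated. Both carry the floxed Cxcl12 allele, and Cre driven by Foxl1 removes it where Foxl1 is active. In the time libraries, cells of C57BL/6 mice are labelled with 1 mM GABA and 20 mM taurine, in 3 libraries at 6 h and 3 at 0 h. The labels give no mouse age, pooling of animals or culture before treatment, and no untreated 6 h library is among them.

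Complement is a cascade of plasma proteases and their targets that marks microbes and damaged cells. The classical pathway starts with the C1 complex, whose protease C1r (C1ra in the mouse) activates C1s. The lectin pathway starts with proteases such as Masp1. Both cleave C4 and C2 into an enzyme that cleaves C3, the central component, while the alternative pathway builds its own C3-cleaving enzyme from C3 and factor B (Cfb) with the help of factor D (Cfd). Serping1 encodes the C1 inhibitor, which blocks C1r, C1s and the lectin proteases, and Cd55 encodes a membrane protein that speeds the decay of C3-cleaving enzymes. Liver makes most plasma complement, and fibroblasts are a known local source of several of these components.

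The sort markers were checked first. Pdgfra stood between 152 and 227 FPKM and Pdpn between 91.7 and 304 FPKM over the 8 libraries. Foxl1 stood at 11.6 FPKM in the Foxl1-cre and 10.2 FPKM in the control library, and between 0.109 and 0.289 FPKM in the time libraries. The deleted gene Cxcl12 stood at 740 FPKM in the Foxl1-cre library, against 1298 FPKM in the control library, and between 860.4 and 969 FPKM in the time libraries. Ly6c1 stood at 89.6 and 141 FPKM in the Foxl1-cre and control libraries and between 8.76 and 12.4 FPKM in the time libraries, although the gate was set on Ly6C-negative cells. Total FPKM ran from 513001 to 579004 per library.

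Among the 9 genes, the C1 inhibitor gene stood highest in the genotype libraries and C3 in the time libraries. Serping1 stood at 1928 FPKM in the Foxl1-cre library and 1717 FPKM in the control library, ranks 17 and 25 of all listed genes. In the time libraries it had 69.1, 80.2 and 73.0 FPKM at 6 h and 70.7, 71.1 and 66.1 FPKM at 0 h, with ranks between 1382 and 1693. Both genotype libraries lay far above all 6 time libraries, and the 6 h and 0 h values overlapped. The genotype mean of FPKM was 25.4 times the time mean, a log2 difference of 4.65 on the log2(FPKM + 1) scale, used for all log2 differences here.

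C3, the component on which all pathways meet, stood at 253 FPKM in the Foxl1-cre library and 208 FPKM in the control library. At 6 h it had 110.1, 117 and 122 FPKM, and at 0 h 105, 116 and 102 FPKM. The genotype libraries were again the highest, but the ratio of means was only 2.05, and C3 kept a rank between 864 and 1084 in the time libraries, against 340 and 411 in the Foxl1-cre and control libraries.

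**Figure D1:**
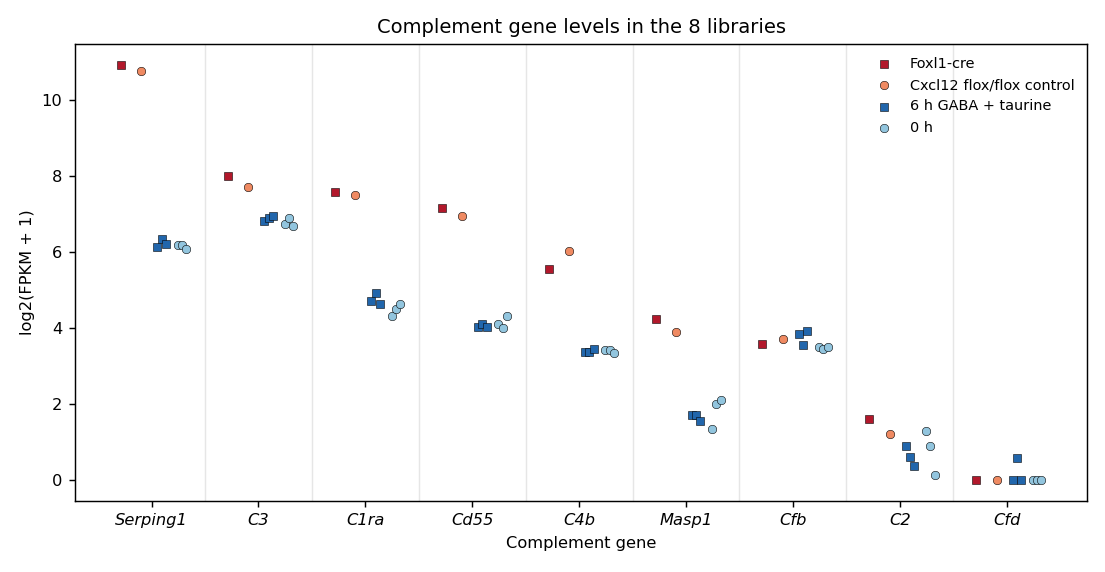
Level of each complement gene as log2(FPKM + 1) in every library, with 1 point per library and the groups set side by side. Serping1, C3, C1ra, Cd55, C4b and Masp1 lie higher in both genotype libraries than in any time library, while the values of Cfb overlap between the sets.

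The proteases that start the pathways followed, with the C1 protease well above the lectin protease. C1ra stood at 188 FPKM in the Foxl1-cre library and 178 FPKM in the control library. It had 24.9, 29.1 and 23.7 FPKM at 6 h and 19.0, 21.3 and 23.6 FPKM at 0 h. The genotype mean was 7.77 times the time mean, and no time library came near either genotype library. Masp1 stood at 17.7 FPKM in the Foxl1-cre and 13.9 FPKM in the control library. Its time values were 2.25, 2.26 and 1.93 FPKM at 6 h and 1.55, 2.98 and 3.32 FPKM at 0 h, so the 0 h libraries spread more widely than the 6 h ones and enclosed them.

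Both parts of the classical C3-cleaving enzyme were found, at very different levels. C4b stood at 45.7 FPKM in the Foxl1-cre library and 64.1 FPKM in the control library, and was steady in the time libraries, at 9.39, 9.37 and 9.82 FPKM at 6 h and 9.62, 9.71 and 9.20 FPKM at 0 h. Its coefficient of variation was 2.65% over the 6 h and 2.84% over the 0 h libraries. C2 stood near the bottom, at 2.02 FPKM in the Foxl1-cre library and 1.30 FPKM in the control library. It had 0.844, 0.530 and 0.288 FPKM at 6 h and 1.46, 0.870 and 0.103 FPKM at 0 h. The C2 values of both sets overlapped.

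Of the alternative pathway, factor B was present and factor D nearly absent from the tables. Cfb, the protease part of the alternative C3-cleaving enzyme, stood at 11.0 FPKM in the Foxl1-cre library and 12.1 FPKM in the control library. It had 13.2, 10.7 and 14.0 FPKM at 6 h and 10.3, 9.84 and 10.3 FPKM at 0 h. Unlike the other 6 members that averaged 1 FPKM or more, its genotype and time values overlapped, with a ratio of means of 1.01. Cfd, the protease that cleaves factor B and a gene known from adipocytes, was listed at 0 in 7 libraries and at 0.487 FPKM in 6 h replicate 2.

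Cd55, the membrane regulator, resembled C1ra in its ratio between the sets of libraries. It stood at 142 FPKM in the Foxl1-cre library and 120.6 FPKM in the control library. The time values were 15.3, 16.2 and 15.4 FPKM at 6 h and 16.2, 14.9 and 18.9 FPKM at 0 h, so 0 h replicate 3 was the highest of the 6. The genotype mean was 8.13 times the time mean.

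In the genotype libraries the order by mean was Serping1, C3, C1ra, Cd55, C4b, Masp1, Cfb, C2 and Cfd, the same in both. In the time libraries C3 came before Serping1 and Cfb before C4b and Masp1. Some neighbours there were close. The lowest C1ra value was 19.0 and the highest Cd55 value 18.9 FPKM, the lowest Cfb value 9.84 and the highest C4b value 9.82 FPKM, and the lowest Masp1 value 1.55 and the highest C2 value 1.46 FPKM, although each pair kept its order within all 6 libraries. C2 and Cfd overlapped.

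Some values may hold reads of other genes. GENCODE vM21 (GRCm38, the assembly that mm10 names) places C4b on chromosome 17 from 34728380 to 34743882, Cfb from 34856374 to 34862518 and C2 from 34862604 to 34898265, all on the minus strand. Cfb and C2 are 85 bases apart, and another protein-coding gene of the same strand, Gm20547, which is not listed in the tables, shares 1656 exonic bases with C2 and 2246 with Cfb. C4b has a near-copy, C4a, and 35.2% of the 50-base windows of its transcript also occur in C4a transcripts. C1ra (chromosome 6, 124512405 to 124523443) shares 48.0% of such windows with C1rb, and Cd55 (chromosome 1, 130439027 to 130462744) 13.3% with Cd55b. The copies stood low: C4a reached 0.154 FPKM, C1rb 0.162 FPKM and Cd55b 1.07 FPKM at most. How the authors assigned shared reads is not given, so the split between these copies is uncertain. The library kit does not mark strand, so antisense reads cannot be told apart from sense reads, which touches Cd55, with 102 exonic bases shared with the antisense gene Gm16083, and C2, with 161 shared with Zbtb12. C3 lies on chromosome 17 from 57203970 to 57228136, Serping1 on chromosome 2 from 84765387 to 84775444, Masp1 on chromosome 16 from 23449417 to 23520815 and Cfd on chromosome 10 from 79890853 to 79892655.

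Promoter windows from RefSeq (GRCm38.p6, 300 bases around the RefSeq start, most of them upstream) matched 4 of the 9 genes, C1ra, C3, Cfd and Cd55. For C1ra the GENCODE start, 124512405, lies near the 5′ end of the window, so by GENCODE most of that window is inside the gene. The 3 with values above 0 throughout are shown because C1ra and Cd55 had similar ratios between the sets of libraries and C3 a much smaller one. The windows were searched on both strands for TTGCNNAA (the letters of C/EBP factors), TTCNNNGAA (those of STAT factors), the κB consensus and TATAAA. Capitals mark the matches. Of 32851 RefSeq windows, 10.8% hold the C/EBP letters, 8.30% the STAT letters, 13.6% TATAAA and 4.51% the κB consensus.
C3, chr17:57228087-57228386, minus strand: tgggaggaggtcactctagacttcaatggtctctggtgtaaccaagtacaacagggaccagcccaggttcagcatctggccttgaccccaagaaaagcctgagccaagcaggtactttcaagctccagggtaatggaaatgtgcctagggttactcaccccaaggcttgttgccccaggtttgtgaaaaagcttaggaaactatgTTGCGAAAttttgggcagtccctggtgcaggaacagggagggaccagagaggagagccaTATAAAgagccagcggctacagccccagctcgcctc
C1ra, chr6:124512371-124512670, plus strand: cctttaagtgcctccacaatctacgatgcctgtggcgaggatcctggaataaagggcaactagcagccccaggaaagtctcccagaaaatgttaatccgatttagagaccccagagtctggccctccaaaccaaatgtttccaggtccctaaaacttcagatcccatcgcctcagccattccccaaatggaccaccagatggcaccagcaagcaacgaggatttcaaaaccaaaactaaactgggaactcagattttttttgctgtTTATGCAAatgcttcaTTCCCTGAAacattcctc
Cd55, chr1:130462695-130462994, minus strand: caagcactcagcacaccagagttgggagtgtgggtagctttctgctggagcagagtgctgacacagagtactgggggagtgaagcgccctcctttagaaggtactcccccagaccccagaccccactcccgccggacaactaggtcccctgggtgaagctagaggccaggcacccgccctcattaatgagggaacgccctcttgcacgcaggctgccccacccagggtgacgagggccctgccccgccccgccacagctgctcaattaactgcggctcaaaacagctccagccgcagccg
Counted from 1 at the 5′ end of the window, the C3 window holds the C/EBP letters at bases 206 to 213 and TATAAA at 265 to 270. The C1ra window holds the C/EBP letters, on the other strand, at 267 to 274 and the STAT letters at 283 to 291, where they read as a match on both strands. The Cd55 window holds none of these letters, and no match in any window overlapped another motif. The C3 match to the C/EBP letters lies before the RefSeq start, while the C3 TATAAA and both C1ra matches lie after it. A match is a run of letters and not a measured binding site.

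The sets of libraries were then compared as a whole, without a test, because their tables may have been normalised separately and because genotype, treatment and handling differ between them and cannot be told apart. The rule asked for set means of log2(FPKM + 1) at least 2-fold apart, and for both genotype libraries beyond all 6 time libraries. Of the 7 members averaging 1 FPKM or more over the 8 libraries, 6 were higher by this rule, and none was lower. Over the 12043 genes that passed the same filter, 21.9% were higher by this rule and 19.8% lower. No member passed the filter through the genotype libraries alone, and the members that failed it were C2 and Cfd. The log2 differences were 4.65 for Serping1, 2.95 for Cd55, 2.92 for C1ra, 2.39 for C4b, 2.32 for Masp1, 1.03 for C3 and 0.03 for Cfb. Their median was 2.39, beside a median of -0.05 over all genes. Serping1 lay above 98.8% of all genes in this difference, Cd55 and C1ra above 95.3% and 95.2%, C3 above 78.1% and Cfb above 52.7%.

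Scaling each library by its median ratio over genes of at least 10 FPKM moved the median of all genes to 0.37, and 3710 genes were then higher and 1343 lower, in place of 2643 and 2379. Relative to the median of all genes, Serping1 stood at 4.70 as deposited and 4.76 after scaling, C3 at 1.08 and 1.13, and Cfb at 0.08 and 0.10. Against the control library alone, the log2 difference of C3 was 0.89, and 5 members met the 2-fold rule.

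**Figure D2:**
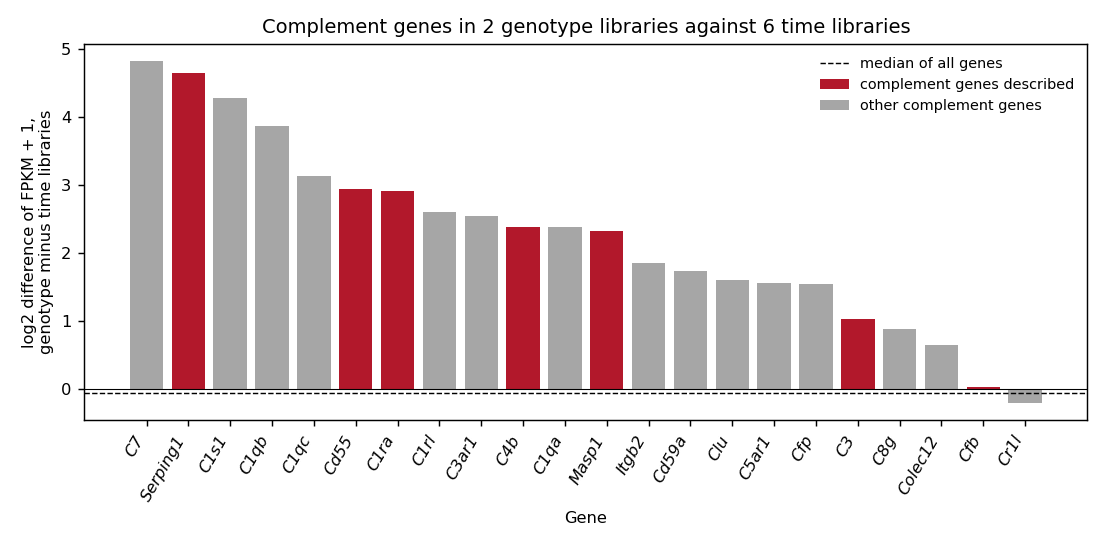
Difference in mean log2(FPKM + 1), genotype libraries (2) minus time libraries (6), for complement genes averaging 1 FPKM or more over all 8. Red bars are genes described here and grey bars other complement genes. Of the 15 grey bars, 10 are genes that passed this filter through the genotype libraries alone. Serping1 (4.65) has the tallest red bar and Cfb (0.03) the shortest red bar, near the median of all genes (-0.05, dashed line).

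Ratios within a library do not depend on scaling between libraries. They differed between the sets too, by an amount and in a direction that depended on the genes compared. Serping1 made up 74.5% of the summed FPKM of the 9 genes in the Foxl1-cre and 74.2% in the control library, against 28.1% to 30.3% in the time libraries. C3 made up 9.78% in the Foxl1-cre and 8.97% in the control library, against 43.7% to 47.1% in the time libraries. The ratio of Serping1 to C1ra, an inhibitor and its target, was 10.2 in the Foxl1-cre and 9.62 in the control library, and 2.76 to 3.72 in the time libraries. The ratio of Serping1 to C1s1, which encodes the other C1 target, differed much less. That ratio was 3.05 in the Foxl1-cre and 2.79 in the control library, and 2.15 to 2.57 in the time libraries. The ratio of C3 to Cfb was 23.1 and 17.1 in the Foxl1-cre and control libraries, and 8.33 to 11.8 in the time libraries. The 9 genes together took 0.490% of total FPKM in the Foxl1-cre and 0.451% in the control library, against 0.0403% to 0.0477% in the time libraries. Set against fibroblast matrix genes, the difference was small or reversed. The ratio of Serping1 to Dcn was 0.310 and 0.299 in the Foxl1-cre and control libraries, and 0.201 to 0.243 in the time libraries. For C1ra to Col3a1 it was 0.045 and 0.049 in the Foxl1-cre and control libraries, and higher, 0.161 to 0.209, in the time libraries.

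**Figure D3:**
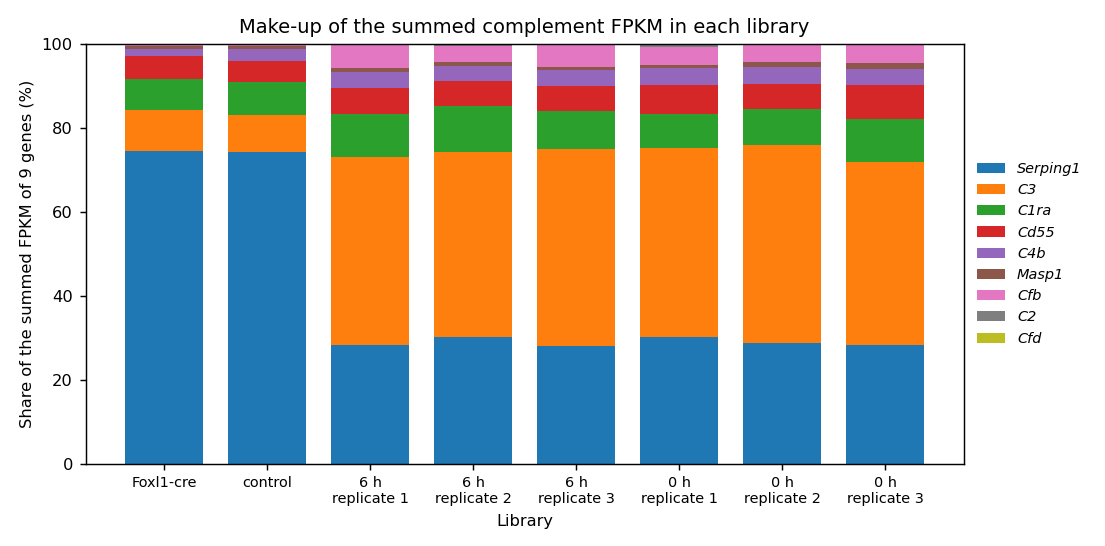
Share of each gene in the summed FPKM of the 9 complement genes, with 1 bar per library. Serping1 fills 74.2% or more of both genotype bars, and C3 fills 43.7% to 47.1% of the time bars.

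Other complement genes were taken from lists of the classical, lectin, alternative and terminal pathways, regulators and receptors, of which 49 genes in the tables are used here. Of these, 15 averaged 1 FPKM or more over the 8 libraries. However, 10 passed through the genotype libraries alone, so their mean FPKM had to be higher there. Of the 5 others, 3 were at least 2-fold higher in the genotype libraries, C1s1, Clu and C5ar1. C1s1, the C1 protease that C1r activates, stood at 632 and 616 FPKM in the Foxl1-cre and control libraries, and between 29.2 and 33.9 FPKM in the time libraries. Clu, which encodes clusterin, a soluble inhibitor of the membrane attack complex, stood at 27.0 and 24.1 FPKM in the Foxl1-cre and control libraries, and between 5.93 and 10.8 FPKM in the time libraries. Cr1l, the rodent membrane regulator also called Crry, stood at 56.8 and 50.04 FPKM in the Foxl1-cre and control libraries and higher, between 59.98 and 65.3 FPKM, in the time libraries. Colec12, a scavenger receptor with a collectin domain, stood at 152 and 139 FPKM in the Foxl1-cre and control libraries and between 80.8 and 97.5 FPKM in the time libraries. Masp2, the lectin protease that cleaves C4 and C2, stood at 0.222 and 0.835 FPKM in the Foxl1-cre and control libraries, within the time range of 0.206 to 1.25 FPKM. C7, a part of the membrane attack complex, stood at 36.4 and 45.5 FPKM in the Foxl1-cre and control libraries and at 0.756 FPKM or less in the time libraries, while C8g did not exceed 2.28 FPKM anywhere. Cfp (properdin) stood at 4.70 and 3.63 FPKM, C5ar1 at 5.37 and 5.33 FPKM and C3ar1 at 4.80 and 6.06 FPKM in the Foxl1-cre and control libraries, and all 3 stayed at 1.87 FPKM or less in the time libraries.

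Markers of other cell types moved with the difference between the sets. All 11 epithelial markers, 4 of 5 leukocyte, 6 of 7 macrophage, 6 of 7 endothelial, 5 of 6 smooth muscle and pericyte and 3 of 4 mesothelial markers lay higher in both genotype libraries than in any time library. These counts have no share over all genes beside them. Over all genes, 20874 and 21006 were above 0 in the Foxl1-cre and control libraries, against 14818 to 14974 in the time libraries. Zeros in the time libraries were therefore not particular to these markers. The summed leukocyte level was 70.7 FPKM in the Foxl1-cre and 57.7 FPKM in the control library, against 0.566 to 1.94 FPKM in the time libraries, where Ptprc, Cd3e and Laptm5 were listed at 0 in at least 1 library. The summed macrophage level was 147 and 122.7 FPKM in the Foxl1-cre and control libraries, against 3.88 to 14.2 FPKM, with Adgre1, Fcgr1, Aif1 and Cx3cr1 listed at 0 in at least 1 time library. The summed epithelial level was 907 and 97.9 FPKM in the Foxl1-cre and control libraries, against 2.63 to 7.94 FPKM, with 7 of the 11, Epcam and Cdh1 among them, listed at 0 in at least 1 time library. The endothelial sum was 38.8 and 61.3 FPKM in the Foxl1-cre and control libraries, against 9.37 to 17.3 FPKM, with Pecam1, Cdh5 and Emcn listed at 0 in at least 1 time library. Smooth muscle and pericyte markers summed to 39.6 and 52.5 FPKM in the Foxl1-cre and control libraries, inside the 40.02 to 53.8 FPKM range of the time libraries for the control library and just below it for the Foxl1-cre library, with Actg2 lower in both than in any time library. The mesothelial sum was 2.31 and 2.51 FPKM in the Foxl1-cre and control libraries, against 0.0263 to 1.28 FPKM. The sum of the fibroblast markers moved in the same direction, at 16077 and 14419 FPKM in the Foxl1-cre and control libraries, against 1621 to 1895 FPKM, with 9 of 12 markers higher in both genotype libraries and Pdpn lower. Markers of CD81-positive, PDGFRα-low fibroblasts summed to 1463 and 1370 FPKM, against 417 to 476 FPKM, with 4 of 5 higher. Fewer cells of a type and less RNA per cell cannot be told apart in bulk libraries, and the part of these cell types in the complement difference was not tested. C1qb, whose protein with C1qa and C1qc forms the recognition unit of C1 and which macrophages are known to make, stood at 20.3 and 12.4 FPKM in the Foxl1-cre and control libraries and at 0.351 FPKM or less in the time libraries.

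Deletion of Cxcl12 by Foxl1-driven Cre is set against the floxed control in the genotype libraries. With 1 library per genotype there is no replicate check and no test. Of the 8 members that averaged 1 FPKM or more in these libraries, 0 differed by 1.5-fold or more in either direction on the FPKM + 1 scale, while 11.2% of 14949 genes did. At a mean of 10 FPKM or more, 0 of 7 members did, beside 124 genes higher and 78 lower of 6435. With so few members, 0 lies near the share over all genes. Of the log2 differences, 6 were positive and 2 negative, with a median of 0.20 beside 0.04 over all genes. C4b had the largest negative one, at -0.48 (45.7 FPKM in the Foxl1-cre and 64.1 FPKM in the control library), and Cfb the other, at -0.13. C2 stood at 0.39, from values near 1 FPKM, and reached 0.59 with a pseudocount of 0.1, past 1.5-fold. Masp1 stood at 0.33, C3 at 0.28, Cd55 at 0.23, Serping1 at 0.17 and C1ra at 0.08. Relative to the median of both libraries C1ra turned to -0.01.

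Of 26 other complement genes averaging 1 FPKM or more in these libraries, 3 were at least 1.5-fold higher in the Foxl1-cre library and 1 was lower. Of all 14949 genes, 622 were higher and 1046 lower by the same rule, or 11.2% in either direction. The median log2 difference of the 26 was 0.09, beside 0.04 over all genes. C1qb stood at 20.3 FPKM in the Foxl1-cre and 12.4 FPKM in the control library, a log2 difference of 0.67. C1qc stood at 12.4 FPKM in the Foxl1-cre and 7.78 FPKM in the control library, a difference of 0.61. C1qa, the third subunit gene, was closer in both, at 4.73 FPKM in the Foxl1-cre and 4.11 FPKM in the control library, a difference of 0.17. The other two were near or under 3 FPKM: Cd46, at 2.22 FPKM in the Foxl1-cre and 0.396 FPKM in the control library, and Vtn (vitronectin), at 0.619 FPKM in the Foxl1-cre and 2.97 FPKM in the control library, both singled out after their values were seen. C1s1 had a log2 difference of 0.04 and Clu of 0.16. In the same comparison 5 of 7 macrophage and 4 of 5 leukocyte markers were higher in the Foxl1-cre library, and all 11 epithelial markers, with summed levels as given above. Of all genes averaging 1 FPKM or more, 8226 of 14949 were higher. Csf1r, Cx3cr1 and Cd79a were lower, and Fcgr1, Aif1 and Cd3e, among those higher, stood at 2.15 FPKM or less. The part of these cell types in the C1qb and C1qc values was not tested.

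The time comparison sets 6 h of GABA and taurine against 0 h, and none of the complement genes tested passed the threshold. Of the 7 members tested, 0 had an adjusted p under 0.05 in limma, while 0.550% of the 10910 genes tested did. For 7 genes, 0 calls lie near that share. C2 and Cfd had means under 1 FPKM and were not tested. An unadjusted p under 0.05 was found for 2 of the 7, C1ra and Cfb, and for 1023 of all genes tested, or 9.38%. Both had p = 0.1 in the exact two-sided permutation test, the smallest it can give with 3 against 3 libraries. These were also the 2 members whose 6 h values all lay above the 0 h values, a pattern seen in 7.25% of all genes tested, and no member had all 6 h values below, as 8.01% of genes did. The members' median log2 difference was 0.09, beside 0.00 over all genes, with 5 positive and 2 negative.

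C1ra averaged 25.9 ± 2.85 FPKM at 6 h and 21.3 ± 2.30 FPKM at 0 h (SD, n = 3 each), with a log2 difference of 0.27 (95% interval 0.05 to 0.49, limma adjusted p = 0.413). The gap was narrow, since 6 h replicate 3 had 23.67 FPKM and 0 h replicate 3 had 23.59 FPKM. Cfb averaged 12.6 ± 1.74 FPKM at 6 h and 10.1 ± 0.266 FPKM at 0 h, with a log2 difference of 0.28 (95% interval 0.04 to 0.53, limma adjusted p = 0.452). Replicates 1 and 3 at 6 h lay higher, while replicate 2 at 6 h was close to the 0 h values. C3 averaged 116.6 ± 6.06 FPKM at 6 h and 107.7 ± 7.64 FPKM at 0 h, a log2 difference of 0.11 whose interval ran from -0.03 to 0.26 (limma adjusted p = 0.638).

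Serping1 had a log2 difference of 0.09 (95% interval -0.06 to 0.24) and C4b one of 0.00 (-0.22 to 0.22). Cd55 stood at -0.08 (-0.30 to 0.14) and Masp1 at -0.17 (-0.60 to 0.27), where the wide interval goes with the spread of Masp1 at 0 h. Masp1 stood at -0.40 without 0 h replicate 1 and at -0.02 without 0 h replicate 3. Of these 4 the interval was narrowest for Serping1 and widest for Masp1.

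**Figure D4:**
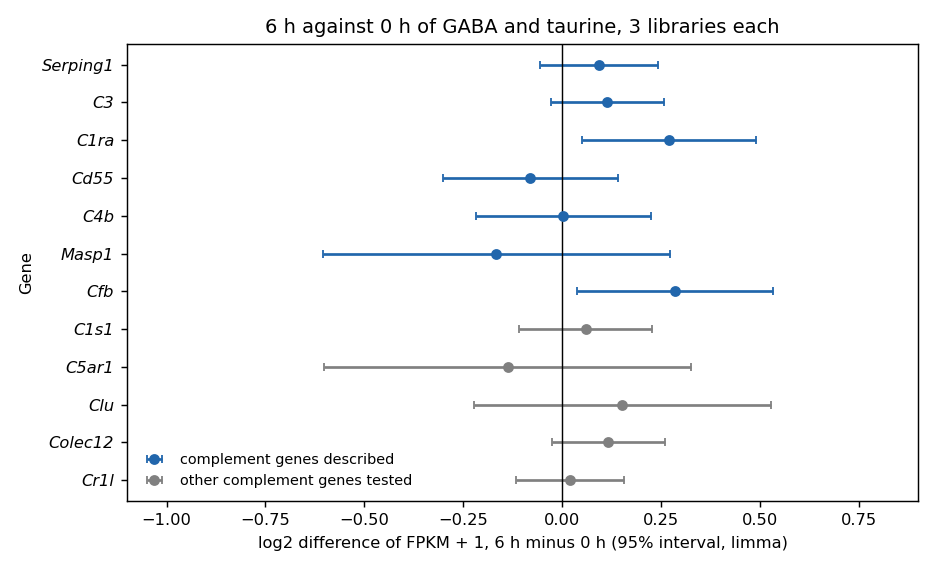
Difference in mean log2(FPKM + 1) between 6 h and 0 h (3 libraries each) for the 7 complement genes described and 5 other complement genes that passed the filter, with 95% intervals from limma. The intervals of C1ra and Cfb lie above 0 without adjustment for the number of genes tested, and no adjusted p passed 0.05.

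Of 5 other complement genes tested, 0 passed in limma and 0 had an unadjusted p under 0.05. Clu averaged 8.35 ± 2.29 FPKM at 6 h and 7.31 ± 1.21 FPKM at 0 h (log2 difference 0.15, limma adjusted p = 0.848), and its difference was -0.03 without 6 h replicate 2 and 0.32 without 6 h replicate 3. C1s1 stood at a log2 difference of 0.06, Colec12 at 0.12, Cr1l at 0.02 and C5ar1 at -0.14. Cr1l turned to -0.02 without 6 h replicate 2 and C5ar1 to 0.03 without 0 h replicate 1. The fibroblast markers summed to between 1842 and 1895 FPKM at 6 h and between 1621 and 1653 FPKM at 0 h, with 6 of 12 higher in all 6 h than in all 0 h libraries. The epithelial sum was also higher at 6 h, at 4.50 to 7.94 FPKM, against 2.63 to 3.70 FPKM at 0 h. The mesothelial sum was 0.816 to 1.28 FPKM at 6 h and 0.0263 to 0.0886 FPKM at 0 h. The part of these cells in the values of C1ra and Cfb was not tested. The sums of the leukocyte, macrophage, endothelial, smooth muscle and pericyte, and CD81-positive fibroblast markers overlapped between the times, with the leukocyte sum at 0.566 to 1.44 FPKM at 6 h and 0.608 to 1.94 FPKM at 0 h.

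Across the 6 time libraries the correlations among members had both signs. With 6 libraries and no share over all gene pairs beside them, they cannot tell whether the members vary together. Pearson correlations of log2(FPKM + 1) over the 21 pairs of tested members ran from -0.74 to 0.69, with 12 positive and 9 negative, as a description over libraries that share group, depth and handling. C3 and Serping1 had the highest value, at 0.69, and C4b and Cd55 the lowest, at -0.74. Among 6308 other genes averaging 10 FPKM or more, the 3 nearest to C3 over these 6 libraries were Hdac5 (r = 0.99), Vapa (0.97) and Htra2 (0.97). For Serping1 they were Senp1, Cep57 and Kat8 (0.98, 0.98 and 0.97), and for C1ra Nup98, Osmr and Mrps9 (0.98 each). With so few libraries, 35 genes had r above 0.9 with C3, 36 with Serping1 and 81 with C1ra.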

How the data were processed

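RNA sequencing was deposited for 8 libraries of sorted mesenchymal cells of mouse large intestine. The authors deposited 1 table per library of FPKM (fragments scaled to transcript length and library depth), per the file headers. Per the submitters' processing notes, the tools were Cuffdiff 2.2.1, SAMtools 0.1.18, TopHat2 2.1.1 and Bowtie2 2.2.8, with mm10 as the build and no role or order stated. Which annotation was used, and whether libraries were scaled to each other, is not given. Reads per library are unknown, so no counting interval is given.

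For 6 h against 0 h, limma 3.58.1 (R 4.3.3, trend over mean level) was run on log2(FPKM + 1) of all genes averaging 1 FPKM or more, and p-values were adjusted by Benjamini-Hochberg over all genes tested (threshold 0.05). An exact two-sided permutation test stood beside it. The labels name no separate animals or cultures, so a p-value here covers the spread among the deposited libraries alone, and that spread may be technical. The other comparisons are descriptions. The fit was checked on simulated data. Alternatives were another pseudocount, other filters, no trend, median scaling, a replicate block and leaving out libraries. A single alternative, the comparison with the control library alone, was added after the data were seen. All 9 members were named, and the other complement genes, markers and rules were listed with earlier results of these data known. Of the other complement genes, the rule named the 2 highest of each list, any called, and those over 1.5-fold apart between genotypes at 10 FPKM or more. Of the listed genes, 2 are not reported here.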

Additional observations from a re-analysis of the deposited data

How the results depend on the processing

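None of the complement genes tested passed the threshold at 6 h in the 13 limma fits, which tested 7 of the 9 genes described (5 with a minimum of 10 FPKM, and 9, C2 and Cfd included, only without a filter) and 3 to 7 of the 49 others (35 without a filter). An unadjusted p under 0.05 was found for 1 or 2 of the genes described in each fit, beside 7.51% to 11% of all genes tested; they were C1ra or Cfb, with Masp1 in place of C1ra without 0 h replicate 1 and C3 in place of Cfb without 0 h replicate 2. The call counts over all genes moved more. They were 60 as reported, 0 without a filter (1322 at an unadjusted p under 0.05), 0 without the trend over mean level (960 unadjusted) and 23 with the replicate number as a block, and ran from 2 to 115 with 1 library left out (4 without 6 h replicate 1, 2 without 6 h replicate 2, 6 without 0 h replicate 1, 3 without 0 h replicate 2 and 115 without 0 h replicate 3). Where a time is left with 2 libraries, its spread is assumed to be like that of the other. No pairing by replicate number was seen: deviations of same-numbered libraries had correlations of -0.08, -0.03 and 0.00. Those of differently numbered libraries ran from -0.07 to 0.09. Whether the numbers mark shared animals or batches is not given. With 1 library left out, C4b, at 0.00 as reported, ran from -0.0186 (without 0 h replicate 3) to 0.0162, and was also below 0 without 6 h replicate 3 (-0.0171). Cd55 ran from -0.154 to 0.0108, above 0 without 0 h replicate 3. Masp1 ran from -0.399 to -0.0207. The adjusted p of C1ra ran from 0.227 to 0.703 and that of Cfb from 0.317 to 0.706 over all fits. Between genotypes, 1 member (C2) passed 1.5-fold with a pseudocount of 0.1. Between the sets, 5 or 6 members met the 2-fold rule under every alternative tried. Read numbers are unknown, so no counting error can be set beside the low values of C2 and Cfd.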
